A study of Homo sapiens with 24 samples.

Results

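RNA of 9 genes that set or sense the phosphorylation of translation initiation factor eIF2, or hold back cap-dependent initiation, was followed in the triple-negative breast cancer line MDA-MB-468 (MB468) and in MDA-MB-468res-R8 (MB468res-R8). The genes are EIF2AK1, EIF2AK2, EIF2AK3, EIF2AK4, EIF2S1, EIF2B5, EIF4EBP1, EIF4EBP2, and PPP1R15B. They were taken by symbol from a count table of 26645 gene entries, and all 9 are among the 14741 genes that passed a filter on low counts. MB468 cells depend on methionine (Met). MB468res-R8 is 1 Met-independent clone that was derived from them by long culture in homocysteine (Hcy) medium. The 0 h libraries of each line are from growth in Met+ medium (100 µM Met), and those at 0.5, 2, and 12 h postmedia switch are from Met-Hcy+ medium (370 µM DL-Hcy, Met left out), which makes 8 groups of 3 libraries. No library is from Met+ medium after 0 h. The responses at 0.5, 2, and 12 h therefore cannot be told apart from effects of the media switch itself or of time in culture. Nothing in the labels says how separate the 3 cultures of a group were, and p-values measure only the spread between these libraries.

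eIF2 carries the initiator tRNA to the ribosome and is recharged by its exchange factor eIF2B. Phosphorylation of its alpha subunit, encoded by EIF2S1, turns eIF2 from a substrate into an inhibitor of eIF2B, which lowers general translation while a few messages such as ATF4 are translated better. The kinases that do this are EIF2AK1 (HRI, which senses heme and mitochondrial stress), EIF2AK2 (PKR, which binds double-stranded RNA), EIF2AK3 (PERK, in the endoplasmic reticulum membrane), and EIF2AK4 (GCN2, which senses uncharged tRNA when amino acids run short). EIF2B5 is the catalytic subunit of eIF2B, and PPP1R15B (CReP) is the constitutive partner that brings protein phosphatase 1 to eIF2. EIF4EBP1 and EIF4EBP2 bind the cap-binding protein eIF4E and keep it from initiation unless mTORC1 phosphorylates them. Kinase activity, phosphorylation, and protein levels were not measured in these libraries, which hold poly(A) RNA only.

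Gene counts per library summed to between 11713037 and 36402932, and the lowest count of any of the 9 genes in any library was 395 (EIF2AK3). A normalized count here is a count divided by the library's effective size (TMM, a scaling by the bulk of genes) and multiplied by the mean effective size, group values are mean ± SD over 3 libraries, and log2 fold changes carry their SE. A gene was called higher or lower at an adjusted p under 0.05 by edgeR's quasi-likelihood test, adjusted over all 14741 genes by the Benjamini-Hochberg method. Epithelial markers (EPCAM, KRT8, KRT18, KRT19, CDH1, EGFR) were high in every library, and PGR, PTPRC, COL3A1, and CD3E were at or near 0. Of the other markers checked, ESR1 was at 417 ± 56.5 and 237 ± 33.0 normalized counts, ERBB2 at 1911 ± 57.6 and 1921 ± 204, COL1A1 (a fibroblast marker) at 764 ± 12.7 and 1488 ± 226, and PECAM1 at 28.8 ± 9.35 and 45.5 ± 13.5 in MB468 and MB468res-R8 at 0 h. COL1A1 and PECAM1 were both higher in MB468res-R8 at 0 h. Markers also moved with the 12 h responses: COL1A1 fell to 338 ± 7.68 in MB468 and 756 ± 101 in MB468res-R8, PECAM1 rose to 49.6 ± 9.78 in MB468, and ESR1 and ERBB2 fell to 108 ± 12.9 and 935 ± 62.3 in MB468res-R8. Of the 6 epithelial markers, 1 rose and 4 fell in MB468 at 12 h, with KRT19 at 31531 ± 1699.9 at 0 h and 12186 ± 1160.0 at 12 h, and 3 rose and 2 fell in MB468res-R8. Of all genes tested, 36.1% rose and 34.7% fell in MB468 at 12 h, and 30.2% and 31.1% in MB468res-R8. The part of these markers in the results was not tested. When libraries were scaled by their spike-in RNAs instead, the median gene itself moved, by -0.31 on the log2 scale between the lines at 0 h and by -0.20, -0.42, and -0.23 in MB468 at 0.5, 2, and 12 h, against shifts of at most 0.04 in size in MB468res-R8. Such scaling moves every gene of a library by the same amount, so a value relative to that median is nearly the TMM value by construction. All 48 calls of the 9 genes over the 11 comparisons kept their sign relative to that median, which is therefore no test of them. Each call that changed sign in absolute terms is named where it is given. One MB468 library at 2 h (replicate 2) held 8251 counts of RN7SK against 44 to 357 in all others, and without it the MB468 2 h comparison called the same 3 of the 9 genes.

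Between the lines in Met+ medium, 5 of the 9 genes were higher and 1 was lower in MB468res-R8, against 26.4% and 27.1% of all genes, and under spike-in scaling the split was 1 higher and 3 lower. In MB468, 3 genes rose and 1 fell at 0.5 h (background 17.6% higher and 16.4% lower), 1 rose and 2 fell at 2 h (8.88% and 7.47%), and 2 rose and 4 fell at 12 h (36.1% and 34.7%). Spike-in scaling turned these MB468 splits to 0 and 1, 0 and 8, and 0 and 5, where the median gene moved by -0.20, -0.42, and -0.23. Percentages of all genes, here and below, are for TMM scaling, and those under spike-in scaling were not counted. Splits under spike-in scaling are therefore not read as particular to the genes counted. In MB468res-R8, 2 rose and 1 fell at 0.5 h (17.4% and 16.3%). At 2 h edgeR's test called 0 of the 9 (2.52% and 1.85%), with 2 at an unadjusted p under 0.05, and DESeq2's Wald test also called 0, with 3 unadjusted. At 12 h, 4 rose and 4 fell in MB468res-R8 (30.2% and 31.1%), split 3 and 3 with spike-in scaling. The responses of each line share its 0 h libraries. Shares of called members at 12 h lay above those of all genes for MB468res-R8 (8 of 9) and close to them for MB468 (6 of 9), while every change stayed under 2-fold, with log2 fold changes of -0.49 to 0.29 in MB468 and -0.84 to 0.55 in MB468res-R8. The 9 genes were chosen with earlier results of these data known, so these shares are a description and no test of the genes.

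**Figure D1:**
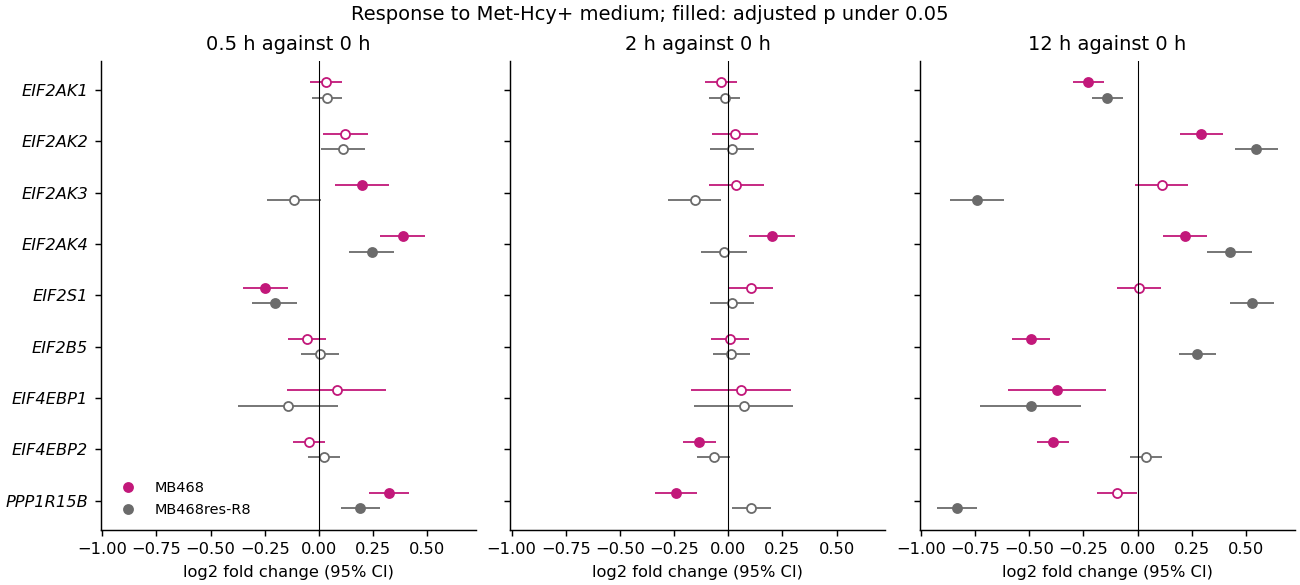
Log2 fold change of each gene against 0 h (x axis) at 0.5, 2, and 12 h in MB468 (magenta) and MB468res-R8 (grey), with 95% confidence intervals from edgeR; filled points have an adjusted p under 0.05. The lines move alike at 0.5 h for EIF2AK4, EIF2S1, and PPP1R15B and apart at 12 h for EIF2AK3, EIF2S1, EIF2B5, EIF4EBP2, and PPP1R15B.

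The difference between the lines in each response, that of MB468res-R8 minus that of MB468, was a contrast within that model and had its own p-value. It passed for 1 gene at 0.5 h (EIF2AK3, lower; background 1.2% higher and 1.7% lower), for 1 at 2 h (PPP1R15B, higher; 2.19% and 2.88%), and for 7 at 12 h, 5 higher and 2 lower (26.2% and 30.3%). EIF2AK1 at 0.09 ± 0.05 (adjusted p = 0.14) and EIF4EBP1 at -0.12 ± 0.15 (adjusted p = 0.52) were the 2 whose 12 h difference did not pass, with 95% intervals of -0.01 to 0.19 and -0.45 to 0.20. EIF2AK1 passed with DESeq2 size factors (0.12, adjusted p = 0.0473), DESeq2's Wald test (0.12, adjusted p = 0.0225), and without MB468 replicate 3 or MB468res-R8 replicate 1 at 0 h, or MB468 replicate 3 or MB468res-R8 replicate 1 or 3 at 12 h (0.12 to 0.15). At 12 h itself all 9 genes differed between the lines, 6 higher and 3 lower in MB468res-R8 (5 and 2 with spike-in scaling), where 33.9% and 39.2% of all genes were called.

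**Figure D2:**
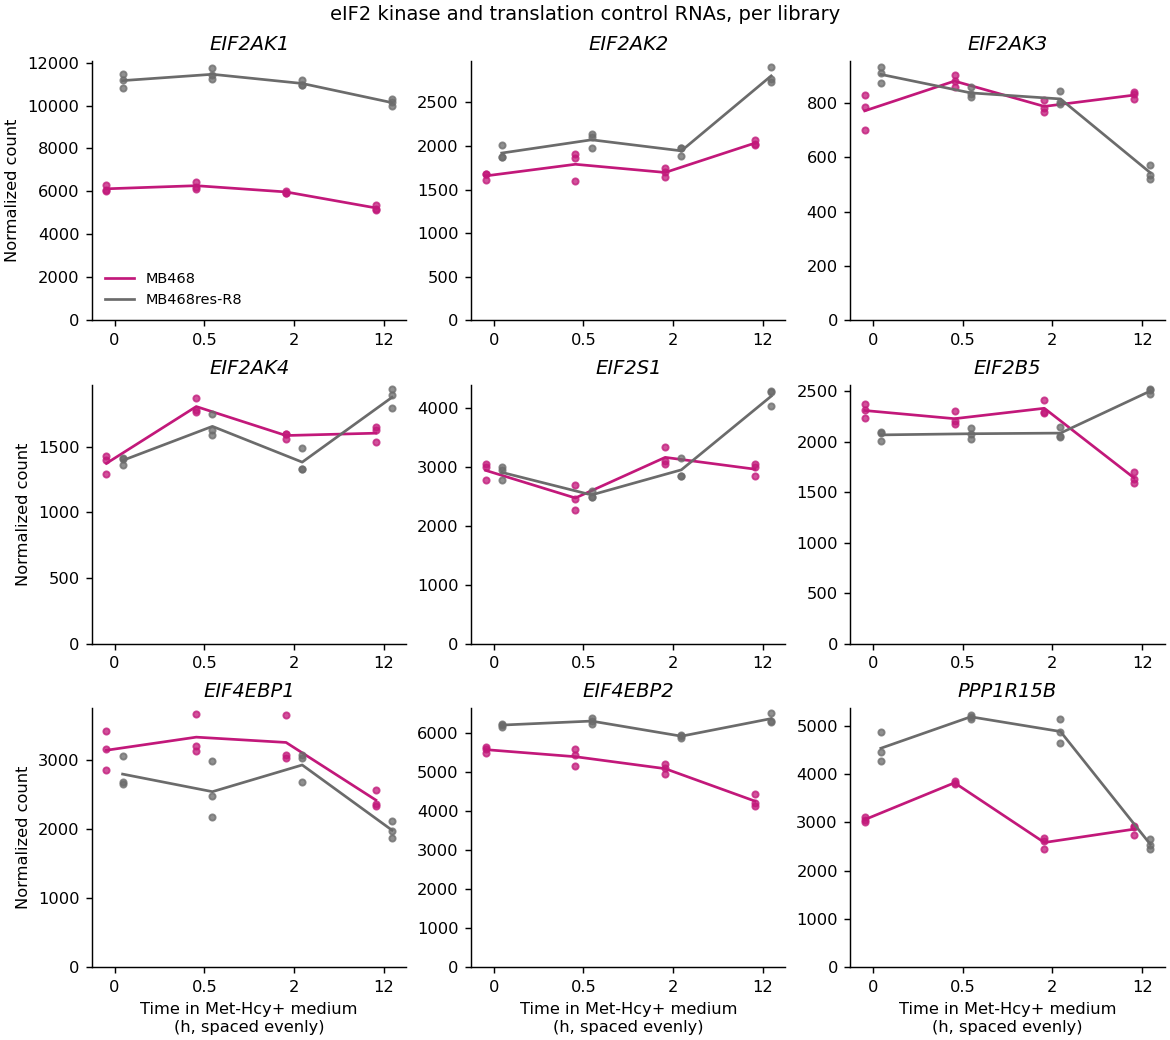
Normalized counts (y axis, from 0) of the 9 genes in each library (points) and the group means (lines) at 0, 0.5, 2, and 12 h (x axis, spaced evenly) in MB468 (magenta) and MB468res-R8 (grey). EIF2AK1 stays apart between the lines at every time, and PPP1R15B starts higher in MB468res-R8 (4531 against 3054) and ends lower (2544 against 2858).

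In CPM (counts scaled to a fixed library total) per kb of annotated exon, EIF4EBP1 was highest in MB468 at 0 h at 157 ± 14.0, followed by EIF2AK1 at 49.0 ± 1.30, EIF4EBP2 at 32.8 ± 0.479, EIF2S1 at 24.3 ± 1.22, PPP1R15B at 14.4 ± 0.271, and EIF2B5 at 14.1 ± 0.443. The other kinases were lowest, EIF2AK2 at 6.60 ± 0.152, EIF2AK4 at 5.04 ± 0.262, and EIF2AK3 at 1.64 ± 0.137 CPM per kb. The libraries of PPP1R15B and EIF2B5 overlapped, and other neighbours in this order did not. In MB468res-R8 at 0 h the order was the same, with EIF2AK1 at 89.3 ± 2.67 and PPP1R15B at 21.3 ± 1.43 CPM per kb. Exon length here joins all annotated transcripts, and for EIF2AK3 it comes to 20.7 kb where the MANE Select transcript has 4536 bases. The order of the lower levels depends on the length used. With MANE Select lengths in MB468 at 0 h, EIF4EBP1 and EIF2AK1 were still highest, at 167 ± 14.9 and 61.0 ± 1.61 CPM per kb, but EIF2B5 came next at 39.6 ± 1.25, above EIF4EBP2 at 32.8 ± 0.479, and EIF2AK4 at 10.9 ± 0.568 was above EIF2AK3 at 7.47 ± 0.625 and EIF2AK2 at 7.30 ± 0.168.

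Among the RNAs of the 4 eIF2 kinases, per kb of annotated exon, EIF2AK1 made up 78.7 ± 0.562% in MB468 and 85.9 ± 0.0555% in MB468res-R8 at 0 h. At 12 h its share was 72.7 ± 0.644% in MB468 and 80.9 ± 0.446% in MB468res-R8. EIF2AK2 held 10.6 ± 0.173% at 0 h and 14.1 ± 0.0655% at 12 h in MB468, against 7.35 ± 0.153% and 11.1 ± 0.205% in MB468res-R8. EIF2AK4 held 8.09 ± 0.348% and 10.2 ± 0.552% in MB468, against 4.92 ± 0.0868% and 6.86 ± 0.221% in MB468res-R8. The means of 3 of the 4 shares thus went the same way in both lines, and that of EIF2AK3 did not, at 2.63 ± 0.277% to 3.06 ± 0.0704% in MB468 and 1.85 ± 0.0511% to 1.15 ± 0.0404% in MB468res-R8. The libraries did not overlap in any of these 0 h to 12 h and line comparisons. Each gave an exact two-sided permutation p of 0.1, the smallest that 3 against 3 allows. The shares sum to a fixed total, so these comparisons are tied together, and a larger share of EIF2AK1 makes the others smaller. In level, EIF2AK2, EIF2AK3, and EIF2AK4 differed between the lines by 0.21, 0.24, and 0.02 in log2 at 0 h (-0.10, -0.074, and -0.29 with spike-in scaling). At 12 h the differences were 0.46, -0.61, and 0.23 (0.42, -0.66, and 0.18 with spike-in scaling, where that of EIF2AK4 did not pass). With MANE Select lengths, EIF2AK1 held 70.4% in MB468 and 79.7% in MB468res-R8 at 0 h and each difference kept its sign, but the order of the others changed. EIF2AK4 then held 12.6% in MB468 and 7.94% in MB468res-R8, above EIF2AK3 at 8.63% and 6.29% and EIF2AK2 at 8.42% and 6.06%, and the libraries of EIF2AK2 and EIF2AK3 overlapped in both lines.

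**Figure D3:**
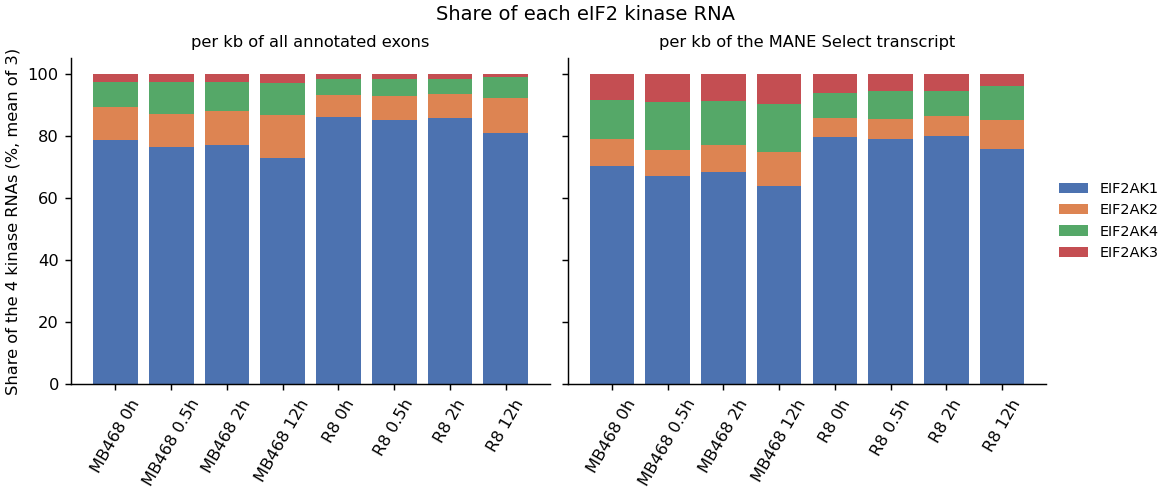
Share (%, mean of 3 libraries) of each eIF2 kinase RNA in the summed level of the 4 per kb, by line and time, with lengths of all annotated exons (left) and of MANE Select transcripts (right). EIF2AK1 holds the most in every group, and its share is 7.20 points larger in MB468res-R8 than in MB468 at 0 h with the lengths on the left.

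EIF2AK1 lies on chromosome 7 (GRCh38, positions 6022247 to 6059175, minus strand) and shares 532 bases of exon, 9.69% of its own, with AIMP2 on the other strand, which reads from an unstranded library kit cannot separate. Its normalized counts at 0 h were 6309, 6046, and 6013 in MB468 and 11175, 11487, and 10821 in MB468res-R8. Every MB468res-R8 library thus stood far above every MB468 library. The difference was 0.87 ± 0.04 (adjusted p = 5.64e-23) in log2, a 1.82-fold higher level. With spike-in scaling the difference was smaller, at 0.55 in log2 (adjusted p = 7.6e-05), and was still called. In bulk libraries, more cells with the RNA and more RNA per cell cannot be told apart. Of 27 other tested genes within 1000 kb of EIF2AK1, 24 were also higher in MB468res-R8 at 0 h and 0 were lower, with a median log2 difference of 0.84, and the part of this in the value of EIF2AK1 was not tested. Of all genes tested, 26.4% were higher and 27.1% lower in MB468res-R8 at 0 h. At 12 h the counts were 5125, 5179, and 5392 in MB468 and 10144, 10283, and 9976 in MB468res-R8, a difference of 0.95 ± 0.04 (adjusted p = 5.12e-25). EIF2AK1 fell in both lines by 12 h, at -0.23 ± 0.04 (adjusted p = 5.27e-07) and -0.14 ± 0.04 (adjusted p = 0.000769), although the fall in MB468res-R8 did not pass with spike-in scaling, and neither 0.5 h nor 2 h showed a call.

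EIF2AK2, on chromosome 2 (37099210 to 37157522, minus strand), is known as an interferon-induced gene and rose in both lines by 12 h. In MB468 its normalized counts were 1678, 1680.5, and 1613 at 0 h and 2015, 2022, and 2066 at 12 h. In MB468res-R8 they were 1876, 2007, and 1876 at 0 h and 2738, 2909.6, and 2769.7 at 12 h. The 12 h libraries lay above the 0 h libraries in both lines. The rise was 0.29 ± 0.05 (adjusted p = 1.45e-06) in MB468, which did not pass with spike-in scaling, and 0.55 ± 0.05 (adjusted p = 1.13e-12) in MB468res-R8, larger by 0.25 ± 0.07 (adjusted p = 0.00192). At 0.5 h EIF2AK2 was called in neither line, but it passed in MB468 without replicate 3 at 0.5 h (0.18, adjusted p = 0.00282) and in MB468res-R8 without replicate 2 at 0 h (0.14, adjusted p = 0.0466) or replicate 3 at 0.5 h (0.14, adjusted p = 0.0402). At 0 h EIF2AK2 was higher in MB468res-R8 by 0.21 ± 0.05 (adjusted p = 0.000514), a direction that spike-in scaling turned to -0.10.

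EIF2AK3, on chromosome 2 (88556741 to 88691518, minus strand), was the kinase whose 12 h responses in MB468 and MB468res-R8 lay farthest apart. Its normalized counts in MB468res-R8 were 933, 909, and 872 at 0 h, 820.4 to 859 at 0.5 h, 796 to 843 at 2 h, and 521, 573, and 535 at 12 h. The 12 h libraries were lower than all others of that line. In MB468 the counts were 701, 784, and 828 at 0 h, 903, 881, and 858 at 0.5 h, and 839, 813, and 835 at 12 h. The 0 h libraries overlapped those at 12 h, and replicate 1 was the lowest of them. EIF2AK3 fell in MB468res-R8 at 12 h with a log2 change of -0.74 ± 0.06 (adjusted p = 2.34e-13), while the MB468 value was 0.11 ± 0.06 (adjusted p = 0.096), and the responses differed by -0.85 ± 0.09 (adjusted p = 4.36e-11). At 0.5 h EIF2AK3 rose in MB468 by 0.20 ± 0.06 (adjusted p = 0.00947), a call lost without MB468 replicate 1 at 0 h (0.13, adjusted p = 0.149) or at 0.5 h (0.16, adjusted p = 0.0848) and turned to -0.01 by spike-in scaling. The 0.5 h responses differed by -0.32 ± 0.09 (adjusted p = 0.0311), a call that was lost when any of 8 of the 12 libraries was left out: MB468 replicates 1 and 2 and MB468res-R8 replicates 1 and 2 at 0 h, MB468 replicates 1 and 2 at 0.5 h, and MB468res-R8 replicates 1 and 3 at 0.5 h. The values then lay between -0.33 and -0.25.

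EIF2AK4, on chromosome 15 (39934115 to 40035591, plus strand), rose early in both lines. In MB468 its normalized counts were 1398, 1429, and 1293 at 0 h and 1778, 1766, and 1874 at 0.5 h. In MB468res-R8 they were 1418, 1408, and 1359.8 at 0 h and 1589, 1629, and 1748 at 0.5 h. All 0.5 h libraries were higher than all 0 h libraries of their line. The rise was 0.39 ± 0.05 (adjusted p = 7.03e-08) in MB468 and 0.24 ± 0.05 (adjusted p = 0.000206) in MB468res-R8, with a difference of -0.14 ± 0.07 (adjusted p = 0.4) between them, and neither rise passed with spike-in scaling (0.18 and 0.29). At 2 h it stood at 1585 ± 24 in MB468, still higher than at 0 h by 0.20 ± 0.05 (adjusted p = 0.00507), and at 1383 ± 90.7 in MB468res-R8, where the value was -0.02 ± 0.05 (adjusted p = 0.95). The difference between these 2 h responses was -0.22 and was not called. Without MB468 replicate 3 at 0 h the 2 h value in MB468 was 0.16 (adjusted p = 0.0526), and spike-in scaling turned it to -0.21. By 12 h EIF2AK4 was higher by 0.22 ± 0.05 (adjusted p = 0.000218) in MB468, turned to -0.01 with spike-in scaling, and by 0.42 ± 0.05 (adjusted p = 2.08e-09) in MB468res-R8. The 12 h rise was larger in MB468res-R8 by 0.21 ± 0.07 (adjusted p = 0.0125).

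EIF2S1 (chromosome 14, 67360328 to 67386516, plus strand), the gene of the phosphorylated subunit itself, fell at 0.5 h in both lines and was higher at 12 h in MB468res-R8. Normalized counts in MB468 were 3001, 3042, and 2768 at 0 h, 2458, 2687, and 2262 at 0.5 h, and 2995, 3037, and 2838 at 12 h. In MB468res-R8 they were 2987, 2776, and 2946 at 0 h, 2584, 2494, and 2484 at 0.5 h, and 4021, 4269, and 4288 at 12 h. The 0.5 h libraries were the lowest in both lines, and the 12 h libraries of MB468res-R8 stood above all others. At 0.5 h EIF2S1 fell with a log2 change of -0.25 ± 0.05 (adjusted p = 0.000174) in MB468 and of -0.20 ± 0.05 (adjusted p = 0.00167) in MB468res-R8, where spike-in scaling took the call away (-0.16). At 12 h the change was 0.01 ± 0.05 (adjusted p = 0.92) in MB468, with an interval of -0.10 to 0.11, and 0.53 ± 0.05 (adjusted p = 6.53e-12) in MB468res-R8. These responses differed by 0.52 ± 0.07 (adjusted p = 4.16e-08).

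EIF2B5 (chromosome 3, 184135038 to 184146127, plus strand) fell in MB468 and rose in MB468res-R8 by 12 h. Its normalized counts in MB468 were 2378, 2316, and 2233 at 0 h and 1633, 1588, and 1702 at 12 h. In MB468res-R8 they were 2099.9, 2011, and 2091 at 0 h and 2514, 2472, and 2519 at 12 h. MB468 libraries were the higher ones at 0 h and the lower ones at 12 h, with no overlap either time. EIF2B5 fell in MB468 with a log2 change of -0.49 ± 0.04 (adjusted p = 1.94e-13) and rose in MB468res-R8 by 0.27 ± 0.04 (adjusted p = 4.75e-07), which with spike-in scaling was 0.30 (adjusted p = 0.0563). The difference of the responses, 0.77 ± 0.06 (adjusted p = 3.63e-14), was the largest positive one among the 9 genes. At 0 h EIF2B5 was lower in MB468res-R8 with a log2 change of -0.16 ± 0.04 (adjusted p = 0.00154), and at 0.5 and 2 h it was called in neither line.

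Of the 7 further genes of eIF2, eIF2B, and EIF5 (the GTPase-activating protein of eIF2), 4 rose and 2 fell in MB468 at 12 h (median log2 fold change 0.19 against 0.01 for all genes, of which 36.1% rose and 34.7% fell), and 7 rose in MB468res-R8 (median 0.35 against -0.02, with 30.2% and 31.1% of all genes called). With spike-in scaling the counts were 1 and 2 in MB468 and 4 and 0 in MB468res-R8. EIF2S3, the gamma subunit, fell in MB468 with a log2 change of -0.33 ± 0.04 (adjusted p = 3.84e-10) and rose in MB468res-R8 by 0.41 ± 0.04 (adjusted p = 2.89e-12), a difference of 0.74 ± 0.05 (adjusted p = 3.84e-15). EIF2B2, the beta subunit of eIF2B, rose in both lines, by 0.57 ± 0.06 (adjusted p = 9.58e-12) in MB468 and by 0.24 ± 0.06 (adjusted p = 0.000507) in MB468res-R8. EIF5 rose in both, by 0.47 ± 0.06 (adjusted p = 5.42e-07) and 0.62 ± 0.06 (adjusted p = 8.29e-09).

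Of 10 genes that partner the kinases, 5 rose and 3 fell in MB468 at 12 h (median 0.16), and 4 rose and 3 fell in MB468res-R8 (median 0.07). These shares were near those of all genes, 36.1% higher and 34.7% lower in MB468 and 30.2% and 31.1% in MB468res-R8. With spike-in scaling the counts were 1 and 4 in MB468 and 2 and 1 in MB468res-R8. NCK1, an adaptor known to bind PERK and eIF2 complexes, rose by 1.48 ± 0.06 (adjusted p = 3.54e-23) in MB468 and 0.59 ± 0.06 (adjusted p = 2.91e-10) in MB468res-R8. HSP90AB1, a chaperone of HRI and PKR that has pseudogene copies able to take some of its reads, fell with a log2 change of -0.83 ± 0.04 (adjusted p = 6.89e-22) in MB468 and rose by 0.60 ± 0.04 (adjusted p = 5.5e-17) in MB468res-R8, and OMA1, the mitochondrial protease of the pathway to HRI, fell in both, at -0.42 ± 0.06 (adjusted p = 2.11e-07) and -0.37 ± 0.07 (adjusted p = 4.57e-06).

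PPP1R15B (chromosome 1, 204396492 to 204411887, minus strand) had the largest fold change against 0 h among the 9 genes, and PPP1R15A (GADD34), the stress-induced form of the same phosphatase subunit, had another course. PPP1R15B normalized counts at 0 h were 3045, 3002, and 3116 in MB468 and 4866, 4453, and 4273 in MB468res-R8. The level was higher in MB468res-R8 by 0.57 ± 0.05 (adjusted p = 4.4e-14), which with spike-in scaling was 0.26 (adjusted p = 0.079). At 0.5 h the counts were 3806, 3793, and 3851 in MB468 and 5222, 5182, and 5139.5 in MB468res-R8, above every 0 h library of the same line. The early rise was 0.32 ± 0.05 (adjusted p = 2.71e-07) in MB468 and 0.19 ± 0.04 (adjusted p = 0.00062) in MB468res-R8, and neither passed with spike-in scaling (0.10 and 0.24). At 2 h MB468 held 2454, 2613, and 2676 and MB468res-R8 4869, 5128, and 4632. MB468 was thus below its start and MB468res-R8 was not, with a fall in MB468, at -0.24 ± 0.05 (adjusted p = 0.000172), a value of 0.11 ± 0.04 (adjusted p = 0.23) in MB468res-R8, and a difference of 0.35 ± 0.06 (adjusted p = 0.000286). Without MB468res-R8 replicate 1 at 0 h, the 2 h value in that line passed at 0.16 (adjusted p = 0.0443).

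By 12 h the order of the lines had turned over. PPP1R15B normalized counts were 2923, 2908, and 2742 in MB468 and 2444, 2658, and 2531 in MB468res-R8, where all libraries were below all MB468 libraries. PPP1R15B fell in MB468res-R8 with a log2 change of -0.84 ± 0.05 (adjusted p = 5.27e-19), a fold of 0.560. In MB468 the value was -0.10 ± 0.05 (adjusted p = 0.0583), and it passed under DESeq2 size factors (-0.12, adjusted p = 0.0189), DESeq2's Wald test (-0.12, adjusted p = 0.0194), a minimum of 10 counts in every library (-0.12, adjusted p = 0.0203), a fit to the compared groups alone (-0.11, adjusted p = 0.00847), spike-in scaling (-0.33, adjusted p = 0.0212), and without MB468 replicate 1 at 12 h (-0.12, adjusted p = 0.0367). The responses differed by -0.74 ± 0.06 (adjusted p = 6.87e-13). The direct line difference at 12 h, -0.17 ± 0.05 (adjusted p = 0.0012), was lost without MB468res-R8 replicate 1 at 12 h (-0.10, adjusted p = 0.0656) and with spike-in scaling (-0.22, adjusted p = 0.139).

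PPP1R15A had normalized counts of 1422, 1355, and 1501 at 0 h and 5378, 5369, and 5179 at 12 h in MB468, and of 1359, 1468, and 1357 and 879, 944, and 910.0 in MB468res-R8. It rose at 0.5 h in both lines, by 0.83 ± 0.05 (adjusted p = 2.04e-16) and 0.81 ± 0.05 (adjusted p = 2.87e-16), and by 12 h it had risen in MB468 by 1.90 ± 0.05 (adjusted p = 1.39e-29) and fell in MB468res-R8 with a log2 change of -0.62 ± 0.06 (adjusted p = 2.15e-12) at 12 h. The ratio of the normalized counts of PPP1R15B to PPP1R15A, not divided by length, was 2.14 ± 0.0694 in MB468 and 3.25 ± 0.288 in MB468res-R8 at 0 h. It was 1.52 ± 0.0673 and 2.12 ± 0.101 at 0.5 h, 0.762 ± 0.0855 and 3.76 ± 0.239 at 2 h, and 0.538 ± 0.00762 and 2.79 ± 0.0201 at 12 h. The inducible form thus had more counts than the constitutive form from 2 h on in MB468 and at no time in MB468res-R8. PPP1CA and PPP1CB, catalytic subunits of protein phosphatase 1, fell in MB468 at 12 h with a log2 change of -0.19 ± 0.04 (adjusted p = 1.56e-05) and -0.19 ± 0.05 (adjusted p = 0.000766). Counting all 4 phosphatase genes other than PPP1R15B, 1 rose and 2 fell in MB468 at 12 h, and 1 rose and 3 fell in MB468res-R8, with spike-in counts of 1 and 3 and of 1 and 1, beside 36.1% and 34.7% of all genes in MB468 and 30.2% and 31.1% in MB468res-R8.

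**Figure D4:**
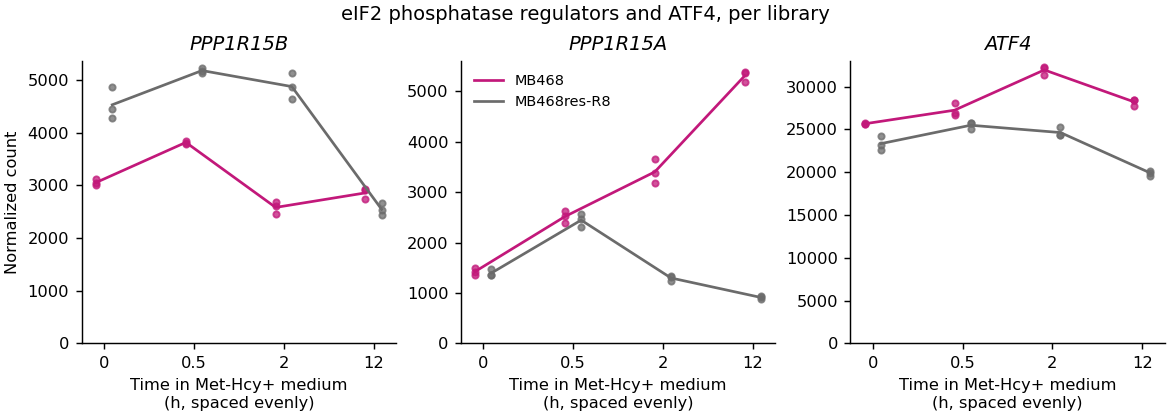
Normalized counts (y axis, from 0) of PPP1R15B, PPP1R15A, and ATF4 in each library (points) with group means (lines) at 0, 0.5, 2, and 12 h (x axis, spaced evenly) in MB468 (magenta) and MB468res-R8 (grey). PPP1R15A reaches 5309 in MB468 and 911 in MB468res-R8 at 12 h, while PPP1R15B is at 2858 and 2544.

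PPP1R15B and EIF2AK4 were the 2 genes of the 9 that rose at 0.5 h in both lines, and for that reason the sequences before their starts are shown. They come from RefSeq promoter entries (build GRCh38.p14), which matched 7 of the 9 genes, and each was searched on both strands for named motifs in the 250 bases before the RefSeq start. The PPP1R15B stretch is chr1:204411888-204412067 on the minus strand, where 70 bases nearest the start are left out because annotated PPP1R15B transcripts cover them, and the EIF2AK4 stretch is chr15:39933865-39934114 on the plus strand. Capitals mark a C/EBP-ATF response element (TGATGNAA) in PPP1R15B and a match to TGANTCA in EIF2AK4. TGANTCA takes any middle base and is looser than the AP-1 site, which has G or C there. The match in EIF2AK4 (TGATTCA) has T and is not called an AP-1 site here.
PPP1R15B: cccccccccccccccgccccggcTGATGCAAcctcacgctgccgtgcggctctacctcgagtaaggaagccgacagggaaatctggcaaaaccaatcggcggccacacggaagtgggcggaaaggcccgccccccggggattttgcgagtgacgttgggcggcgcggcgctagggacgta
EIF2AK4: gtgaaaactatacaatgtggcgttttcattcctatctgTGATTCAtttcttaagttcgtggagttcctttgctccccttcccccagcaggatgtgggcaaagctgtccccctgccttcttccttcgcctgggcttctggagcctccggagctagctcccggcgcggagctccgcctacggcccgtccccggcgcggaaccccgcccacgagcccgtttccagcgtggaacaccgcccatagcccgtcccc
The element in PPP1R15B begins 227 bases before the start, and TGATGNAA is found in 3.14% of 35116 RefSeq promoter stretches of this length. The match in EIF2AK4 begins 212 bases before the start, and TGANTCA, with any middle base, is found in 6.57% of these stretches. A long noncoding RNA annotated on the other strand shares 523 bases of exon with PPP1R15B. Of other motifs searched in the 7 genes, an E-box (CACGTG, in 6.34% of all stretches) was found in EIF2AK2, the GC box (GGGCGG, in 42.6%) in EIF2AK2, EIF2AK4, EIF4EBP2, and PPP1R15B, and the cAMP response element (TGACGTCA, 1.65%), the interferon-stimulated response element (3.02%), and the ER stress response element (0.074%) in 0 of 7. A match of letters is a description only, and binding was not measured. A motif that was not found can still lie outside these 250 bases.

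Of the 4E-binding proteins, EIF4EBP1 fell at 12 h in both lines and EIF4EBP2 fell in MB468. EIF4EBP1 is on chromosome 8 (38030534 to 38060365, plus strand), and its libraries ranged over 2173 to 2989 normalized counts at 0.5 h in MB468res-R8. Without the filter on low counts it was called at 0 h (-0.17, adjusted p = 0.00175), in MB468res-R8 at 0.5 h (-0.14, adjusted p = 0.0234), and for the 0.5 h difference (-0.22, adjusted p = 0.0377). It was 3163, 2859, and 3420.5 at 0 h and 2365, 2333, and 2576 at 12 h in MB468. In MB468res-R8 there were 2684, 3057, and 2665 at 0 h and 1971, 1869.9, and 2123 at 12 h. EIF4EBP1 fell in both lines, at -0.37 ± 0.11 (adjusted p = 0.00521) and -0.49 ± 0.11 (adjusted p = 0.000878), with no overlap between 0 h and 12 h libraries. At 12 h it was lower in MB468res-R8 with a log2 change of -0.29 ± 0.11 (adjusted p = 0.0257), a call lost without MB468 replicate 3 (-0.24, adjusted p = 0.103) or MB468res-R8 replicate 1 (-0.24, adjusted p = 0.109) or 2 (-0.24, adjusted p = 0.0907) at 12 h.

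EIF4EBP2 (chromosome 10, 70404145 to 70428618, plus strand) fell in MB468. Its normalized counts there were 5607, 5648, and 5490.4 at 0 h, 5604, 5436, and 5161 at 0.5 h, 5112, 5213, and 4956 at 2 h, and 4129.6, 4211, and 4442 at 12 h. In MB468res-R8 they were 6166, 6216, and 6251 at 0 h and 6299.8, 6526, and 6305 at 12 h. In MB468 the 2 h libraries were below all 0 h libraries and the 12 h libraries below all others, while the 0.5 h libraries overlapped those at 0 and 2 h, and MB468res-R8 libraries were above MB468 libraries at both ends. The fall in MB468 was -0.13 ± 0.04 (adjusted p = 0.0099) at 2 h, lost without MB468 replicate 3 at 2 h (-0.11, adjusted p = 0.0606), and -0.39 ± 0.04 (adjusted p = 3.25e-12) at 12 h. In MB468res-R8 the 12 h value was 0.04 ± 0.04 (adjusted p = 0.38), with an interval of -0.04 to 0.11, and the responses differed by 0.43 ± 0.05 (adjusted p = 4.14e-09). At 0 h EIF4EBP2 was higher in MB468res-R8 by 0.15 ± 0.04 (adjusted p = 0.000554), turned to -0.16 with spike-in scaling.

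EIF4E, the cap-binding protein that both hold back, had 1629, 1590.4, and 1522 normalized counts at 0 h and 1597, 1634, and 1611 at 12 h in MB468, and 1612, 1560.5, and 1604 and 2343, 2609, and 2526 in MB468res-R8. It rose in MB468res-R8 by 0.64 ± 0.05 (adjusted p = 1.08e-14) and was at 0.03 ± 0.05 (adjusted p = 0.64) in MB468, a difference of 0.62 ± 0.07 (adjusted p = 5e-10). Of 12 tested genes of the cap-binding complex and its binding proteins other than EIF4EBP1 and EIF4EBP2, 1 rose and 6 fell in MB468 at 12 h (median -0.23), and 9 rose and 3 fell in MB468res-R8 (median 0.29), against 36.1% and 34.7% of all genes in MB468 and 30.2% and 31.1% in MB468res-R8. With spike-in scaling the counts were 0 and 7 in MB468 and 6 and 3 in MB468res-R8. Their 12 h difference between the lines was higher for 8 and lower for 0, where 26.2% and 30.3% of all genes were called. PDCD4, which blocks the helicase eIF4A, fell in both lines, at -1.60 ± 0.05 (adjusted p = 8.54e-27) and -1.67 ± 0.05 (adjusted p = 1.81e-26). EIF4G3 fell in both, at -1.61 ± 0.22 (adjusted p = 3.4e-08) and -0.93 ± 0.21 (adjusted p = 0.000184), and EIF4B, a helper of eIF4A, fell with a log2 change of -0.71 ± 0.04 (adjusted p = 9.15e-21) in MB468 and rose by 0.26 ± 0.04 (adjusted p = 3.2e-08) in MB468res-R8. EIF4A1, a gene that every cell uses, is listed at 0 counts in all 24 libraries and was not tested, and this 0 is not read here as absence of its RNA.

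**Figure D5:**
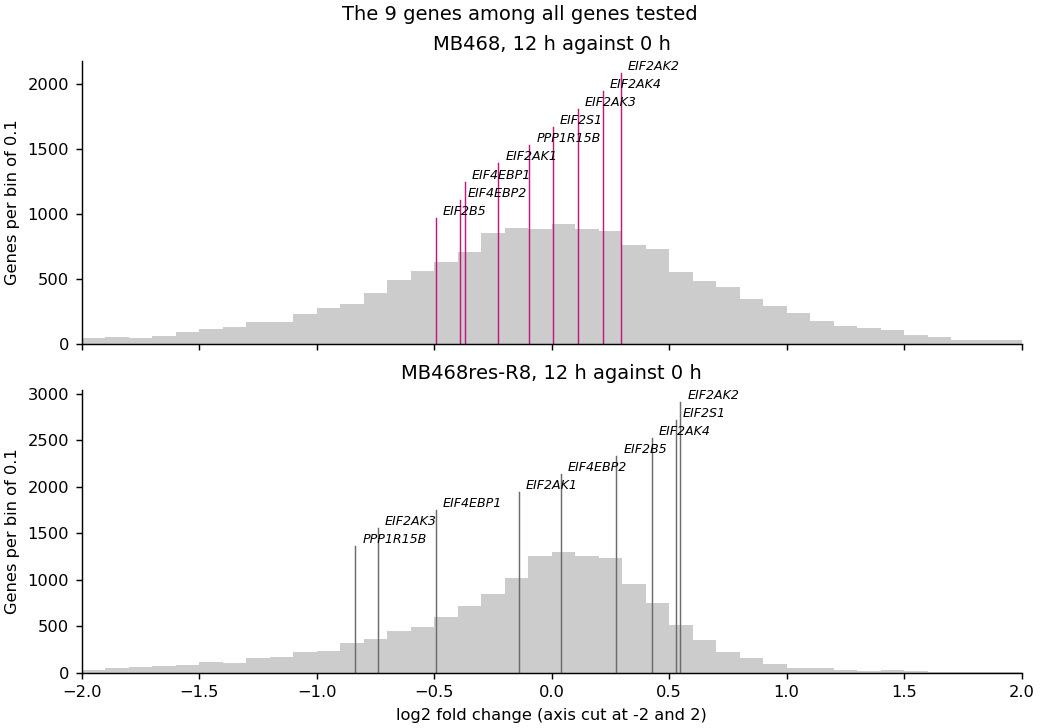
Number of genes (y axis) per bin of 0.1 in the 12 h log2 fold change (x axis, cut at -2 and 2) over all 14741 genes tested, in MB468 (top) and MB468res-R8 (bottom), with a line for each of the 9 genes; line heights differ only to keep names apart. The 9 genes lie between -0.49 and 0.29 in MB468 and between -0.84 and 0.55 in MB468res-R8, inside the body of the distribution.

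Around mTORC1 and S6 kinase, 3 of 9 genes rose and 3 fell in MB468 at 12 h (median 0.01), and 1 rose and 2 fell in MB468res-R8 (median -0.02). In MB468 this is close to the 36.1% and 34.7% of all genes, and in MB468res-R8 30.2% and 31.1% of all genes were called. With spike-in scaling the counts were 0 and 4 in MB468 and 1 and 0 in MB468res-R8. EEF2K, the kinase of elongation factor 2, fell in MB468 with a log2 change of -0.82 ± 0.06 (adjusted p = 1.59e-14) and was at -0.06 ± 0.06 (adjusted p = 0.41) in MB468res-R8. RPS6KB1, an S6 kinase, rose by 0.48 ± 0.06 (adjusted p = 6.22e-10) and 0.30 ± 0.06 (adjusted p = 3.02e-05), and DEPTOR, an inhibitor of mTOR, fell in MB468 with a log2 change of -0.35 ± 0.09 (adjusted p = 0.000498) and was at -0.01 ± 0.10 (adjusted p = 0.94) in MB468res-R8.

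The ATF4 axis is known to lie downstream of eIF2 phosphorylation. Of its 12 genes, 10 rose and 0 fell at 0.5 h in both lines (medians 1.38 and 1.20), and at 12 h 9 rose and 2 fell in MB468 (median 1.26) against 3 and 7 in MB468res-R8 (median -0.28). Of all genes, 17.6% rose and 16.4% fell in MB468 and 17.4% and 16.3% in MB468res-R8 at 0.5 h, and 36.1% and 34.7%, and 30.2% and 31.1%, at 12 h. With spike-in scaling these counts were 8 and 0, 9 and 0, 8 and 3, and 3 and 5. At 2 h, 10 rose and 0 fell in MB468 (median 0.78) against 3 and 0 in MB468res-R8 (median 0.08). Of all genes, 8.88% rose and 7.47% fell in MB468 at 2 h, and 2.52% and 1.85% in MB468res-R8. The 2 h difference between the lines was higher for 0 and lower for 7, where 2.19% and 2.88% of all genes were called. With spike-in scaling the 2 h counts were 6 and 2, 1 and 0, and 0 and 5. The list was chosen with earlier results of these data known, so its counts are a description only. ATF4 itself, whose control is known to be mainly by translation, moved by 0.14 ± 0.03 (adjusted p = 0.000423) in MB468 and -0.23 ± 0.03 (adjusted p = 2e-07) in MB468res-R8 at 12 h, where the MB468 value is smaller than the shift of the median gene with spike-in scaling. CHAC1, which degrades glutathione, rose by 4.40 ± 0.10 (adjusted p = 8.88e-30) in MB468 at 12 h, SESN2, an inhibitor of mTORC1, by 3.05 ± 0.09 (adjusted p = 7.02e-28), and DDIT3 (CHOP) by 2.39 ± 0.12 (adjusted p = 5.31e-21). In MB468res-R8 at 12 h they were at -0.34 ± 0.11 (adjusted p = 0.00859), -0.17 ± 0.09 (adjusted p = 0.11), and 0.23 ± 0.13 (adjusted p = 0.13). Against these, the largest change among the 9 translation control genes was the fall of PPP1R15B in MB468res-R8.

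Patterns over the 8 group means, on the log2 CPM scale, were compared with those of 9866 other genes at a mean of at least 3, as a description over 8 points that share libraries. EIF2AK1 was most like AGTRAP and TMX4 (Pearson r 0.996 for each), EIF2S1 most like BMS1 (0.998) and SNU13 (0.986), and EIF2B5 most like RPL6 (0.996) and WDR61 (0.993). EIF2AK2 was most like PPP2R1B (0.990) and ICE2 (0.984), and EIF4EBP2 like TIMM8B (0.992) and LASP1 (0.990). EIF2AK3 was most like CUL9 (0.977) and SLC2A12 (0.960), EIF2AK4 like LYRM7 (0.978) and CDC73 (0.975), and PPP1R15B like FAM102A (0.979) and TMEM8A (0.977). Among the 9 genes themselves, EIF2AK1 and EIF4EBP2 had the highest r (0.87), and EIF2AK2 and EIF4EBP1 the lowest (-0.94).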

How the data were processed

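Poly(A) RNA libraries with spike-ins were prepared by the authors with an unstranded kit, sequenced as single-end reads, aligned with HISAT2 2.1.0 to GRCh38/hg38 and counted with featureCounts (Subread 1.5.3), and the counts used here are the raw values deposited for all 24 libraries. A second deposited table, of signal made by the authors from counts over DESeq2 size factors (18 libraries), served only to compare ratios. The authors' table of fold changes and p-values was not used. Counts were fitted in R 4.3.3 with edgeR 4.0.16 (quasi-likelihood test, robust, filterByExpr with minimum count 10 and minimum total 15, TMM, 1 mean per group). The study used DESeq2 with a factor of unwanted variation whose settings are not given in the sources used here, and DESeq2 1.42.0 was an alternative. Other alternatives were spike-in scaling, other filters, a replicate block, an adjusted p of 0.01, fits to fewer groups, and leaving out each library, and MANE Select lengths and all fits without MB468 replicate 2 at 2 h were added after seeing the data. The fit was tested on simulated data. Positions and lengths come from GENCODE 44 on GRCh38, whose release need not be the authors'. The 9 genes and the context lists were chosen with earlier results of these data known. All 9 genes are named, with ATF4, PPP1R15A, EIF4E, and the 3 called genes per list with the largest 12 h change in MB468. The genes most like EIF4EBP1 in pattern are not reported here.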

Additional observations from a re-analysis of the deposited data

Results flagged for a closer look

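The results here are those in which both lines responded unequally by edgeR's test of the difference, with MB468 subtracted from MB468res-R8. At 12 h these log2 differences were 0.77 ± 0.06 for EIF2B5, 0.52 ± 0.07 for EIF2S1, 0.43 ± 0.05 for EIF4EBP2, 0.25 ± 0.07 for EIF2AK2, 0.21 ± 0.07 for EIF2AK4, -0.74 ± 0.06 for PPP1R15B, and -0.85 ± 0.09 for EIF2AK3. EIF2B5 differed by a fall in MB468 and a rise in MB468res-R8 that each passed. At 2 h PPP1R15B differed by 0.35 ± 0.06. At 0.5 h EIF2AK3 differed by -0.32 ± 0.09.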

How the results depend on the processing

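With spike-in totals as library sizes, the number of the 9 genes called was 1 in MB468 at 0.5 h (with 3 at an unadjusted p under 0.05), 8 in MB468 at 2 h, 0 in MB468res-R8 at 0.5 h (1 unadjusted), and 0 for the difference between the lines at 0.5 h (0 unadjusted). That difference was also called for 0 genes at an adjusted p of 0.01 and in an edgeR fit to the compared groups alone (2 and 1 unadjusted), while DESeq2's Wald test called 1. Spike-in scaling reversed EIF2AK2 (-0.10), EIF2AK3 (-0.074), and EIF4EBP2 (-0.16) between the lines at 0 h, EIF2AK3 in MB468 at 0.5 h (-0.015), and EIF2AK4 in MB468 at 2 h (-0.21) and 12 h (-0.011). By construction this scaling moves every gene of a library by the same amount. DESeq2 size factors, DESeq2's Wald test, no filter on low counts, and at least 10 counts in every library kept every count within 1.5 times. Without the filter the 1 gene called for the 0.5 h difference was EIF4EBP1 in place of EIF2AK3. With the replicate block, the number called stayed at 6 for the lines at 0 h, 4, 3, and 6 in MB468, 3, 0, and 8 in MB468res-R8, 1, 1, and 7 for the differences, and 9 for the lines at 12 h, and all 99 single results kept their direction and side of the threshold. The labels do not say whether replicate numbers pair the libraries, and 3 libraries per group cannot decide it. Deviations of same-numbered libraries correlated at a mean of 0.28 (-0.03 to 0.47) between 0 and 2 h in MB468res-R8, against -0.14 for other numbers. In each other comparison the same-number mean was 0.08 or less. Leaving out 1 library gave 0 to 1 genes for the 0.5 h difference, 3 to 5 (MB468, 0.5 h), 2 to 3 (MB468, 2 h), 0 to 1 in MB468res-R8 at 2 h, 1 to 2 for the 2 h difference, and 7 to 9 for the lines at 12 h. The 2 h difference of EIF2AK4, at -0.22 and not called with all libraries, passed without MB468res-R8 replicate 3 at 2 h (-0.27, adjusted p = 0.0243). All 72 ratios of the deposited normalized counts had the same direction as the fitted value wherever that value was called.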

Other observations

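MTOR, whose protein is the kinase of the 4E-binding proteins, was singled out after its values were seen. At 0 h its normalized count was 2977 ± 66.7 in MB468 against 6113 ± 183 in MB468res-R8, a log2 difference of 1.04 ± 0.04 (adjusted p = 7.81e-24), and 2854 ± 74.6 and 6032 ± 139 at 12 h, where the log2 difference was 1.08 ± 0.04 (adjusted p = 3.25e-25).

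The genes near each of the 9 were counted after the values of EIF2AK1 were seen, as tested genes within 1000 kb, at 0 h, in MB468res-R8 against MB468. Of all genes tested, 26.4% were higher and 27.1% lower in this comparison. Around EIF2AK1, 24 of 27 were higher and 0 lower, with log2 differences of -0.30 to 1.43 and a median of 0.84, where EIF2AK1 itself was at 0.87. Around PPP1R15B, which was at 0.57, 5 of 20 were higher and 10 lower, with a median of -0.19. Around the other 7 genes the medians lay between -0.03 and 0.15.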
